A study of Homo sapiens with 12 samples.

Results

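PEG10 is a gene that mammals domesticated from a retrotransposon, and its messenger RNA still encodes a gag protein and, after a ribosomal frameshift, a longer gag-pol protein. Gag forms capsid-like particles, pol carries an aspartic protease, and the protease can release a small nucleocapsid fragment (NC) from the end of gag that holds a zinc knuckle, a short zinc-binding fold known from retroviruses for binding nucleic acid. HEK293 is a human embryonic kidney cell line that expresses many neuronal genes and takes up plasmid DNA readily. Wild-type HEK293 cells were transfected with PEG10 gag-pol, PEG10 gag, PEG10 NC or the control LifeAct-Dendra2, an actin-binding peptide joined to a fluorescent protein, so all 4 groups carried a plasmid and none was left untransfected. The series describes 3 independent passages of the cells, and the libraries of each construct carry the replicate numbers 1 to 3. No label ties a number to a passage, so libraries that share a number are described here by that number alone. The comparison described here set the 6 libraries with gag-pol or NC against the 6 libraries with gag or control and covered 17176 of 26485 genes, those with enough counts to be tested. The question it addresses is which gene functions separate cells with gag-pol or free NC from cells with gag, which holds the same NC sequence within a longer protein, or no PEG10 plasmid.

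The zinc knuckle shared by gag-pol, gag and NC is encoded by 42 bases in exon 2 of PEG10, at chr7:94664439-94664480 on the plus strand of GRCh38, amino acids 295 to 308 of the 325 of gag. It is shown because it is the nucleic acid binding element present in all 3 PEG10 constructs, on both sides of the comparison, and the capitals mark the codons of the 3 cysteines and the histidine that hold the zinc ion.
PEG10 zinc knuckle: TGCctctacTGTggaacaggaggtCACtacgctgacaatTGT

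PEG10 RNA itself did not follow the comparison. Control libraries held 326, 336 and 224 CPM of PEG10 (CPM, counts per 1e+06 counts of the library) and NC libraries 2928, 2436 and 3888. Gag libraries held 58391, 37501 and 64905 CPM and gag-pol libraries 75467, 35436 and 28988. The side of gag and control thus contained both the lowest libraries and libraries near the highest. The log2 difference of 1.56 (SE 0.27, edgeR adjusted p = 0.00802) averaged over these levels and did not pass the threshold with DESeq2 (adjusted p = 0.197). Because the NC plasmid carries a short insert, its CPM cannot be set against those of the longer constructs as molecules.

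Library totals were 30.6 to 45.3 M counts. Of the kidney line's markers, KRT8 was at 260 to 312 CPM and VIM at 414 to 687 CPM, whereas NEFM was at 1.12 to 3.25 CPM. The blood cell markers PTPRC and CD3E and the fibroblast marker DCN did not exceed 0.200 CPM. Other markers of absent cell types were detected, CD68 of the blood cell list at 12.3 to 22.7 CPM and SOX2 of the embryonic stem cell list at 22.5 to 50.1 CPM. The 4 blood cell markers summed to 12.5 to 22.9 CPM with gag or control and 14.6 to 22.3 with gag-pol or NC. The 4 fibroblast markers summed to 0.704 to 10.6 CPM with gag or control and 0.982 to 2.08 with gag-pol or NC. The summed level of the 7 HEK293 markers was 1195 to 1509 CPM with gag-pol or NC and 932 to 1147 CPM with gag or control, and 3 of the 7 (VIM, NEFL and CDH2) were called higher, a difference whose part in the results below was not tested.

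Among the gene lists described below, called members were mostly higher with gag-pol or NC for cytosolic ribosomal proteins, biosynthetic and energy metabolism, mitosis, axon guidance and extracellular matrix, and mostly lower for interferon-stimulated, zinc finger, chromatin, lysosomal and motile cilium genes. In most of these lists the larger number of members was not called. In several of them the medians differed between gag-pol and NC, or against gag and against control, as given below. With the replicate number as a block, edgeR's quasi-likelihood test and a Benjamini-Hochberg threshold of 0.05, 4244 of the 17176 genes differed (24.7%), 2244 higher (13.1%) and 2000 lower (11.6%). Without gag-pol replicate 3 the count was 2818, with 1316 lower. The differences were small. The median absolute log2 difference of these genes was 0.29, where 1 stands for a 2-fold change, 801 reached 0.5 and 218 reached 1. Of the 4244 genes, 4165 differed in the same direction in all 3 replicate numbers, against 9381 of all 17176. All 6 libraries of a side lay above all 6 of the other for 117 genes (0.681%), of which 106 were among those called, and once each replicate number's mean was removed this held for 1857 genes (10.8%), of which 1719 were among those called. Most called genes thus overlapped between sides across all 12 libraries. The counts of shared direction and of separation among called genes come from the libraries that made the calls, so they are not independent of the calls.

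The comparison can be divided into pairs that share no library. Gag-pol against gag called 1109 genes (6.46%) and NC against control 1922 (11.2%). Of the 521 genes called higher with gag-pol than gag (3.03%), 509 (97.7%) were also higher with NC than control, with a median of 0.35, and of the 588 called lower (3.42%), 554 (94.2%) were also lower, with a median of -0.32. Over all genes tested 72.6% had the same sign in both. The count of genes called for gag-pol against gag moved with single libraries, to 122 when gag replicate 1 was left out, 130 when gag-pol replicate 3 was and 1849 when control replicate 3 was. NC against control gave 367 genes without control replicate 3 and 823 without NC replicate 3. In the other division, gag-pol against control called 1942 genes (11.3%), 941 higher (5.48%) and 1001 lower (5.83%), and NC against gag 2898 (16.9%). There 693 of 941 genes called higher with gag-pol than control (73.6%) and 840 of 1001 called lower (83.9%) had the same direction in NC against gag, with 63.7% over all genes. Both divisions used the same 12 libraries, so they are not independent of each other. The calls of every pair came from a single fit to all 12 libraries, which shared scaling, spread and replicate block.

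**Figure D1:**
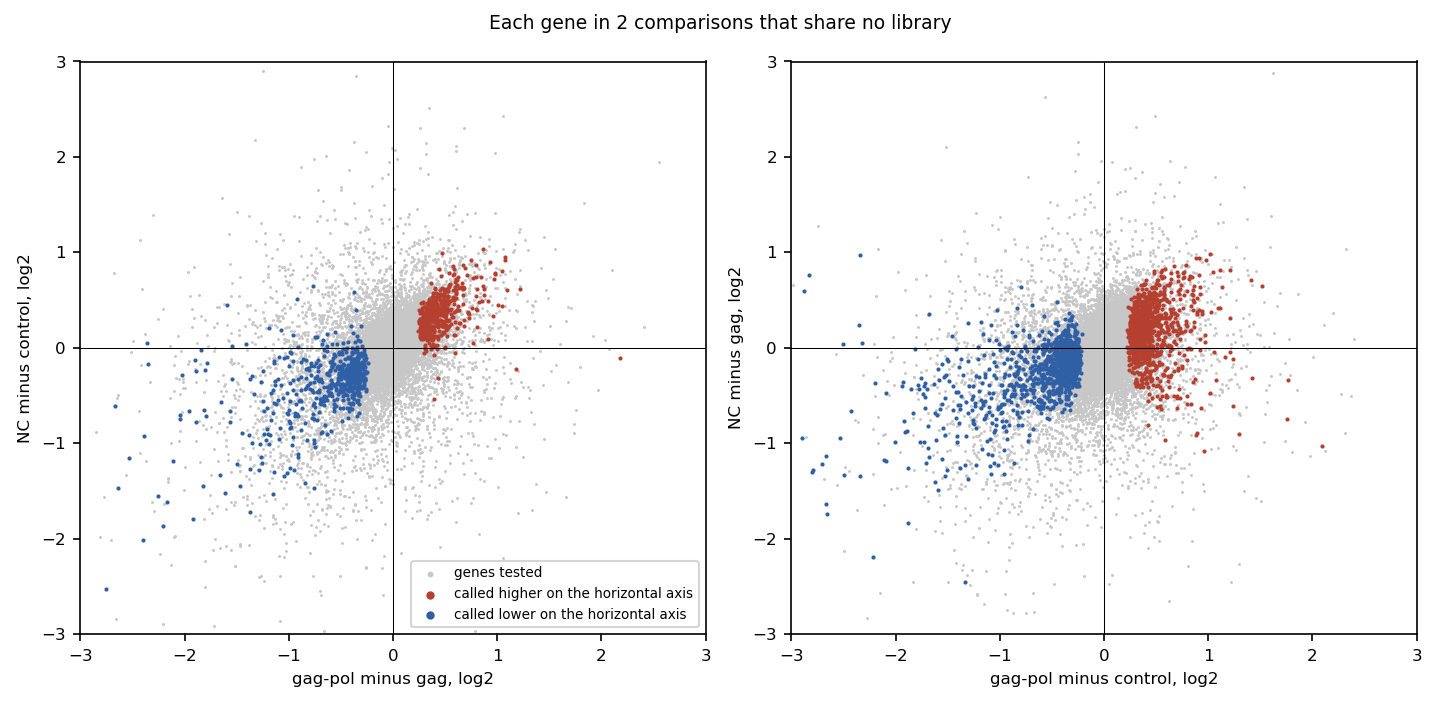
Each point is 1 of 17176 genes, placed by its log2 difference in 2 comparisons that share no library (left, gag-pol minus gag and NC minus control; right, gag-pol minus control and NC minus gag), with genes called on the horizontal axis in red (higher) and blue (lower). On the left 97.7% of the red and 94.2% of the blue points keep their sign on the vertical axis; 30 genes on the left and 37 on the right lie beyond the limits of the plot at 3.

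Calls made from 2 replicate numbers were then read in the libraries of the number left out. For replicate 1, 1195 of 1223 genes called higher and 951 of 1017 called lower from the other numbers kept their sign. For replicate 2 the counts were 1513 of 1654 and 1432 of 1537, and for replicate 3 they were 1233 of 1260 and 930 of 959. Of all genes tested, 70.5% to 75% did so.

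The same genes also differed between replicate numbers where no PEG10 plasmid was present. The contrast of gag-pol and gag holds no control library. Its fit used all 12 libraries, so its calls were not made without the controls. Of 521 genes higher with gag-pol than gag, 511 (98.1%) were higher in control replicate 2 than in the mean of the other 2 controls. The median of this difference was 0.40 on the log2 scale. Of the same genes, 34 (6.53%) were higher in control replicate 3, with a median of -0.43. Of the 588 genes lower with gag-pol, 35 (5.95%) were higher in control replicate 2 and 477 (81.1%) in control replicate 3. Over all genes the shares were 51.1% and 50.5%. The axis on which the constructs differed was thus also an axis on which control libraries of different replicate numbers differed, by an amount near the construct difference itself. Without the replicate number in the model no gene was called by edgeR, with 2615 genes at an unadjusted p under 0.05 against 6266 with it. The part of this difference in the comparison of constructs was not tested.

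**Figure D2:**
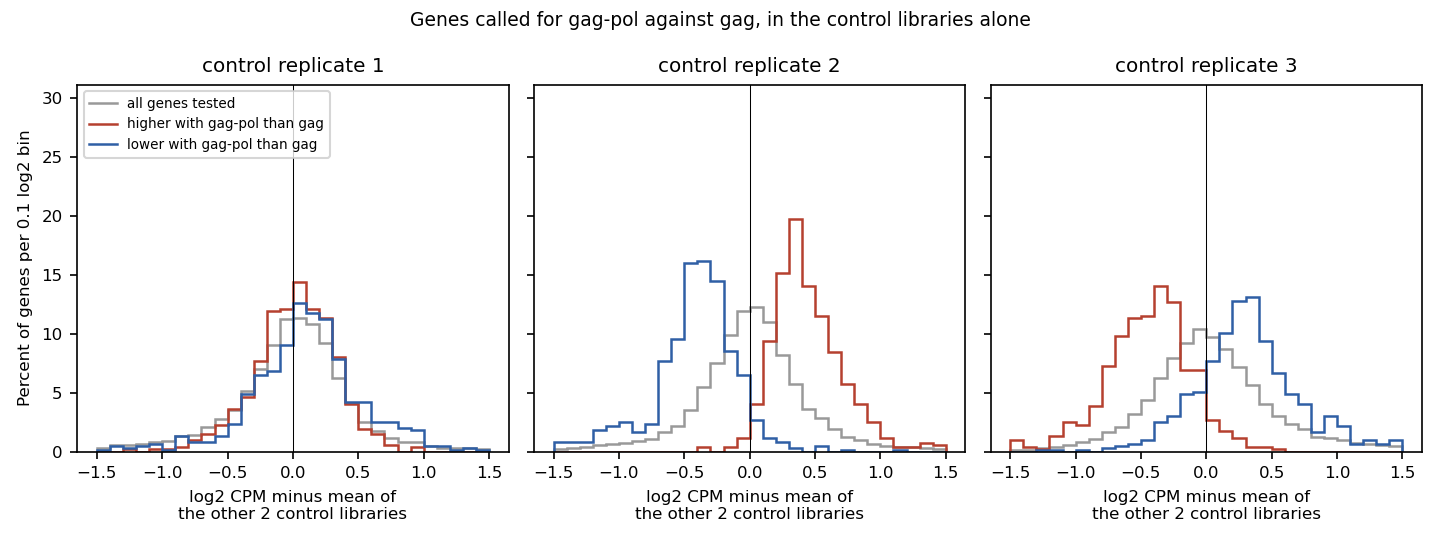
Distribution, in percent of genes per 0.1 log2 bin, of each control library's log2 CPM minus the mean of the other 2 control libraries, for all 17176 genes (grey), the 521 genes called higher (red) and the 588 called lower (blue) with gag-pol than gag; 394 to 518 genes per panel lie beyond the plotted limit of 1.5. Red lies to the right of 0 in control replicate 2 and to the left in control replicate 3, and blue the reverse.

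The smallest p-value among the rises belonged to ARRDC4, an arrestin-domain protein whose transcription follows glucose. It had 53, 102 and 45.7 CPM with control and 79.6, 119 and 59.6 with gag, and 99.3, 152 and 93.0 with NC and 97.6, 150 and 95.9 with gag-pol. Within every replicate number both higher constructs lay above both others, and the log2 difference was 0.63 (SE 0.06, edgeR adjusted p = 5.84e-06). DPYSL4, a relative of the collapsin response mediators of growth cones, had 11 to 26.0 CPM with gag or control and 23.6 to 39.7 with gag-pol or NC, with medians of 22.5 and 35.1. Its log2 difference was 0.77 (SE 0.08, edgeR adjusted p = 9.21e-06). NEFL, the light neurofilament chain, had 83.4 to 190 CPM (median 162) against 173 to 311 (median 226), a difference of 0.69 (SE 0.08, edgeR adjusted p = 0.000118). VIM, the intermediate filament vimentin, was a gene with no overlap among the 12 libraries, at 414 to 504 CPM with gag or control and 525 to 687 with gag-pol or NC.

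DCLK1, a microtubule-associated kinase of growing neurons that the study singled out, had 17.5, 27.5 and 13 CPM with control and 17.1, 24.1 and 16.9 with gag. NC libraries had 24.6, 40.7 and 28.7 CPM and gag-pol libraries 26.2, 35.6 and 26.1. The sides overlapped across replicate numbers but not within them, and the log2 difference was 0.66 (SE 0.08, edgeR adjusted p = 2.96e-05). TXNIP, the thioredoxin-interacting relative of ARRDC4 that the study also named, had a smaller difference of 0.37 (SE 0.07, edgeR adjusted p = 0.00112). Its levels with gag, 33.7, 34.8 and 26.6 CPM, lay near those with gag-pol, 34.5, 37.1 and 28.8 CPM, and above those with NC, 23.0, 31.4 and 21.2 CPM. Gag-pol against gag for TXNIP gave 0.08 (edgeR adjusted p = 0.68), so TXNIP reached its call through the control libraries, at 14.4, 18.9 and 14.6 CPM.

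Among genes at a mean log2 CPM of at least 2 with the same direction in all 3 replicate numbers, the rises of the largest size were in genes of low level. ADCYAP1R1, the receptor of the neuropeptide PACAP, had 1.09 to 5.90 CPM against 4.78 to 11.3 and a log2 difference of 1.01 (SE 0.17, edgeR adjusted p = 0.00041). SFRP5, a secreted Wnt inhibitor, differed by 0.95, NOS1, the neuronal nitric oxide synthase, by 0.92, SNCB, beta-synuclein, by 0.92 and UTF1, a chromatin factor of embryonic stem cells, by 0.88. SMIM10L2A, CCBE1, SEMA5B and WDR86 followed at 0.81 to 0.88. The smallest p-values among rises belonged to ARRDC4, DPYSL4, SDC3 (0.64), a neuronal heparan sulfate proteoglycan, SPON1 (0.64), a secreted matrix protein of the floor plate, and ADA (0.77), adenosine deaminase. Among the same genes the leading falls were larger than the leading rises. CD14, a coreceptor of innate immunity, had 3.07, 3.4 and 14.3 CPM with control, 3.12, 3.44 and 12.8 with gag, 1.56, 0.792 and 6.92 with NC and 1.77, 1.35 and 4.16 with gag-pol. Its log2 difference was -1.28 (SE 0.17, edgeR adjusted p = 4.37e-05), and the spread between replicate numbers was wider than that between constructs. RANBP3L (-1.22), ACTA1 (-1.20), the skeletal muscle actin, LSMEM1 (-1.17), NPR3 (-1.15), the clearance receptor of natriuretic peptides, and PYGM (-1.13), muscle glycogen phosphorylase, were the other leading falls outside the interferon and cilium groups. LSMEM1 had 6.21 to 16.0 CPM with gag or control and 2.65 to 5.05 with gag-pol or NC, without overlap. The smallest p-values among falls belonged to ZBTB48 (-0.64), a telomere-binding zinc finger protein, CARD6 (-1.12), PNPLA6 (-0.51), a phospholipase of neurons, SRRT (-0.52), which links the cap-binding complex to RNA processing, and ZBTB17 (-0.57), the partner of MYC known as MIZ1. ZBTB17 did not overlap between sides, at 67.8 to 120 CPM against 53.5 to 67.7.

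**Figure D3:**
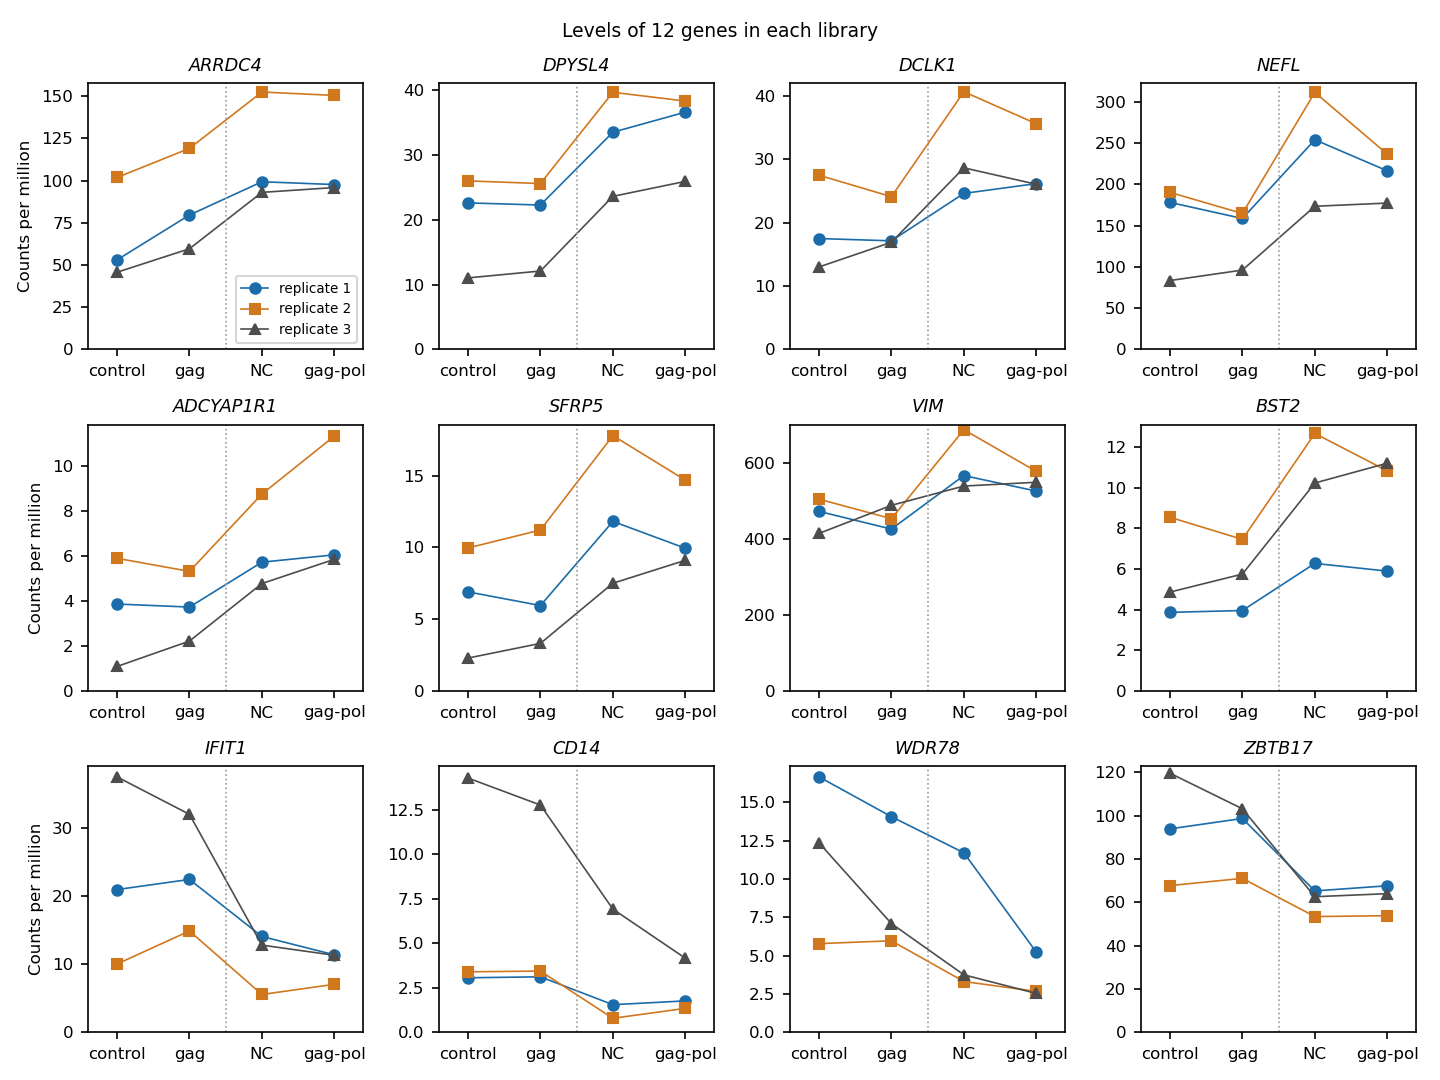
Level of 12 genes in CPM for each construct, where a point is 1 library, a line joins the 4 libraries of 1 replicate number (circles, squares and triangles for replicates 1 to 3) and the dotted line parts gag and control from NC and gag-pol. For VIM and ZBTB17 no library of a side reaches the other side, whereas for CD14 the replicate 3 libraries stand above the others on both sides.

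Gene functions were described with 52 lists that hold 2835 of the genes tested and 874 of those called (20.6%), so that most called genes belong to none of them. Of these lists 1, for genes of the mitochondrial genome, had no gene in the counts. The motile cilium list was added later and is not among the 52. Each count below is read against the 13.1% higher and 11.6% lower of all genes and against their median log2 difference of -0.01. A difference between a list and all genes was not tested. The members given as the largest of a list are those at a mean log2 CPM of at least 1.

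Cytosolic ribosomal protein genes were mostly called higher. These genes encode the proteins of both ribosomal subunits. Of 84 tested, 54 were higher (64.3%) and 1 was lower, with a median log2 difference of 0.20. The lower gene, RPL3L, is a muscle form at a very low level here. Medians for gag-pol were 0.16 against gag and 0.13 against control, and for NC 0.26 and 0.24 in the same order. Gag-pol against gag called 3 of the 84 higher, beside 521 of all 17176 genes. NC against control called 24 higher, beside 1037 of all genes. The list's mean level without the replicate number means overlapped between sides, at -0.18 to 0.02 with gag or control and -0.05 to 0.26 with gag-pol or NC. RPL39 had 241 to 373 CPM against 306 to 509 and differed by 0.35 (SE 0.07, edgeR adjusted p = 0.000775), RPS4X also by 0.35 and RPS25 by 0.34. The number of ribosomal protein genes higher was 14 to 66 under the 5 alternatives run for lists (DESeq2, the GC and length correction and leaving out each replicate number), each with more higher than lower. Reads of these genes can be shared with their many processed pseudogenes, and how such reads were counted was not given in the sources used here. Translation factors had 14 of 58 higher and 4 lower, with EEF1A1 (0.34), the elongation factor that brings transfer RNA to the ribosome, and EIF4EBP1 (0.50), the repressor of cap-dependent initiation, among the rises and EIF5 (-0.33) the largest fall. Aminoacyl-tRNA synthetases had 8 of 20 higher, among them IARS (0.30), LARS (0.28) and EPRS (0.25), and 2 lower, with medians of 0.01 for gag-pol against gag and 0.11 for NC against control. Ribosome biogenesis factors were near the share of all genes, with 10 of 55 higher and 6 lower, led by NPM1 (0.32) and UTP14A (-0.44). Mitochondrial ribosomal proteins were too, with 11 of 78 higher, led by MRPL30 (0.33), and 3 lower, led by MRPL1 (-0.51).

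Biosynthetic metabolism had the highest share of any list over 6 genes. Of 25 genes for serine, one-carbon and nucleotide synthesis, 19 (76.0%) were higher and 0 lower, with a median of 0.21. PSAT1, which makes serine from a glycolytic intermediate, had 80.5 to 163 CPM against 136 to 251 and differed by 0.48 (SE 0.09, edgeR adjusted p = 0.00133). DHODH (0.42), of pyrimidine synthesis, PRPS2 (0.41), which makes the ribose donor of nucleotides, and MTHFD2 (0.41), of the mitochondrial folate cycle, rose as well. The list's mean level without the replicate number means did not overlap between sides, at -0.19 to -0.06 with gag or control and 0.04 to 0.19 with gag-pol or NC on the log2 scale. Glycolysis had 12 of 21 higher and 0 lower (median 0.19), including LDHA (0.45, SE 0.10, edgeR adjusted p = 0.00455), the lactate-forming enzyme, PFKL (0.41), the liver-type phosphofructokinase, and HK2 (0.36), a hexokinase. The hypoxia list, whose genes overlap glycolysis, had 11 of 25 higher, with HILPDA (0.47) the largest rise, and 2 lower. Sterol synthesis had 9 of 24 higher, with HMGCS1 (0.48) and IDI1 (0.32), and 1 lower, MVK (-0.23), whose call was lost without any of control replicates 1 and 3, gag replicates 1 and 2, gag-pol replicate 1 or NC replicates 1 and 3. Sterol medians were 0.03 and 0.10 for gag-pol against control and against gag, and 0.14 and 0.21 for NC in the same order. Of the sterol genes 0 were called for gag-pol against gag. Fatty acid synthesis had 8 of 18 higher, with ACSS2 (0.35) and ELOVL5 (0.32), and 0 lower. Nuclear-encoded subunits of oxidative phosphorylation had 23 of 85 higher (27.1%) and 0 lower, with ATP5G2 (0.34), ATP5G1 (0.31) and UQCRC2 (0.29). Their medians were 0.05 and 0.08 for gag-pol against control and against gag, and 0.17 and 0.19 for NC in the same order. Mitochondrial import and chaperones had 9 of 35 higher, with TOMM20 (0.38) and HSPD1 (0.33), and 1 lower, TIMM44 (-0.25). The medians of that list were 0.04 for gag-pol against gag and 0.16 for NC against control. Genes of the mitochondrial genome were not analysed here.

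Mitotic genes had more rises than falls. Mitosis had 17 of 59 higher (28.8%) and 1 lower (median 0.11), with SPC24 (0.47, SE 0.09, edgeR adjusted p = 0.000536), a kinetochore protein, UBE2C (0.32), CDK1 (0.30) and TOP2A (0.29). DNA replication had 9 of 52 higher, led by TYMS (0.36), thymidylate synthase, and 4 lower, with a median of -0.02. Genes for replication-dependent histones, whose messengers mostly lack a poly(A) tail and are sampled poorly in poly(A) libraries, had 0 of 49 higher and 11 lower, with HIST1H3E at 3.71 to 8.40 CPM against 1.77 to 3.87 (-1.05, SE 0.16, edgeR adjusted p = 0.000114). Their medians against gag were -0.79 for gag-pol and -0.56 for NC, and against control -0.05 for gag-pol and -0.05 for NC. The difference between these was not tested. Of 29 p53 targets 5 were higher and 3 lower.

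Axon guidance and neuronal cytoskeleton genes had more higher than lower calls, and at least as many members were not called as were higher. Of 66 genes for axon guidance ligands and receptors, secreted and membrane proteins that steer growth cones, 24 were higher (36.4%) and 2 lower (median 0.12). Among the ligands SEMA5B had 3.75 to 10.8 CPM against 7.18 to 16.4 and differed by 0.83 (SE 0.13, edgeR adjusted p = 0.00022) and SLIT3 by 0.75. Among the receptors PLXNA4 differed by 0.71 and PLXNC1 by 0.65. SEMA3B (-0.31) was the larger fall, and it lost its call without any of control replicate 3, gag replicates 1 and 2, gag-pol replicates 1 and 3 or NC replicate 2. Of 38 genes of the neuronal cytoskeleton 15 were higher (39.5%) and 4 lower, with MAP6 (0.79), a microtubule stabilizer, DPYSL4, NEFL and DCLK1 at the top and SPTBN4 (-0.46), a spectrin of the axon initial segment, lowest. The 6 axon extension genes shown by the study were all higher with a median of 0.68, but the study chose them on these samples, so their direction is not independent evidence. Other neuronal lists were mixed. Synaptic vesicle and secretory granule genes had 3 of 44 higher, led by CPLX1 (0.48), and 8 lower, led by SCG3 (-1.17) and SYN1 (-1.11), both at low levels of 0.549 to 9.72 CPM. Synaptic adhesion and scaffold genes had 7 of 33 higher and 3 lower (median 0.11), voltage-gated channels 11 of 57 higher, among them KCNG1 (0.62) and KCNQ1 (0.55), and 4 lower, and ligand-gated channels 6 of 36 higher, among them GABRA5 (0.94) and GRIK3 (0.74), and 4 lower.

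Matrix and Wnt genes also had more higher than lower calls. Of 74 matrix and integrin genes 27 were higher (36.5%) and 5 lower (median 0.12), with the collagen cross-linking oxidases LOXL4 (0.70) and LOXL1 (0.57) and the metalloprotease ADAMTS8 (0.64) among the rises and ADAMTS6 (-0.70) the largest fall. Collagens had 11 of 41 higher and 5 lower. The Wnt list had 16 of 65 higher and 3 lower (median 0.08). Its ligands WNT4 (0.75), WNT3A (0.66) and WNT7B (0.62) and its secreted inhibitors SFRP5 (0.95) and SFRP1 (0.56) rose, and the inhibitor SFRP4 (-0.58) fell. The BMP and TGF-beta list was divided, with 7 of 52 higher and 8 lower, and its lower members included ID3 (-0.54) and ID2 (-0.40), immediate targets of BMP signals. Notch genes had 7 of 30 higher, led by HEY1 (0.51), and 3 lower, and Hippo genes 4 of 28 higher, led by AMOT (0.65), and 0 lower. Cadherins had 8 of 59 higher, with CDH3 (0.53) and CDH1 (0.41), and 2 lower. Actin and serum response genes had 7 of 43 higher and 4 lower, and HOX genes 2 of 37 higher, HOXA13 (0.47) and HOXB9 (0.15), and 6 lower.

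**Figure D4:**
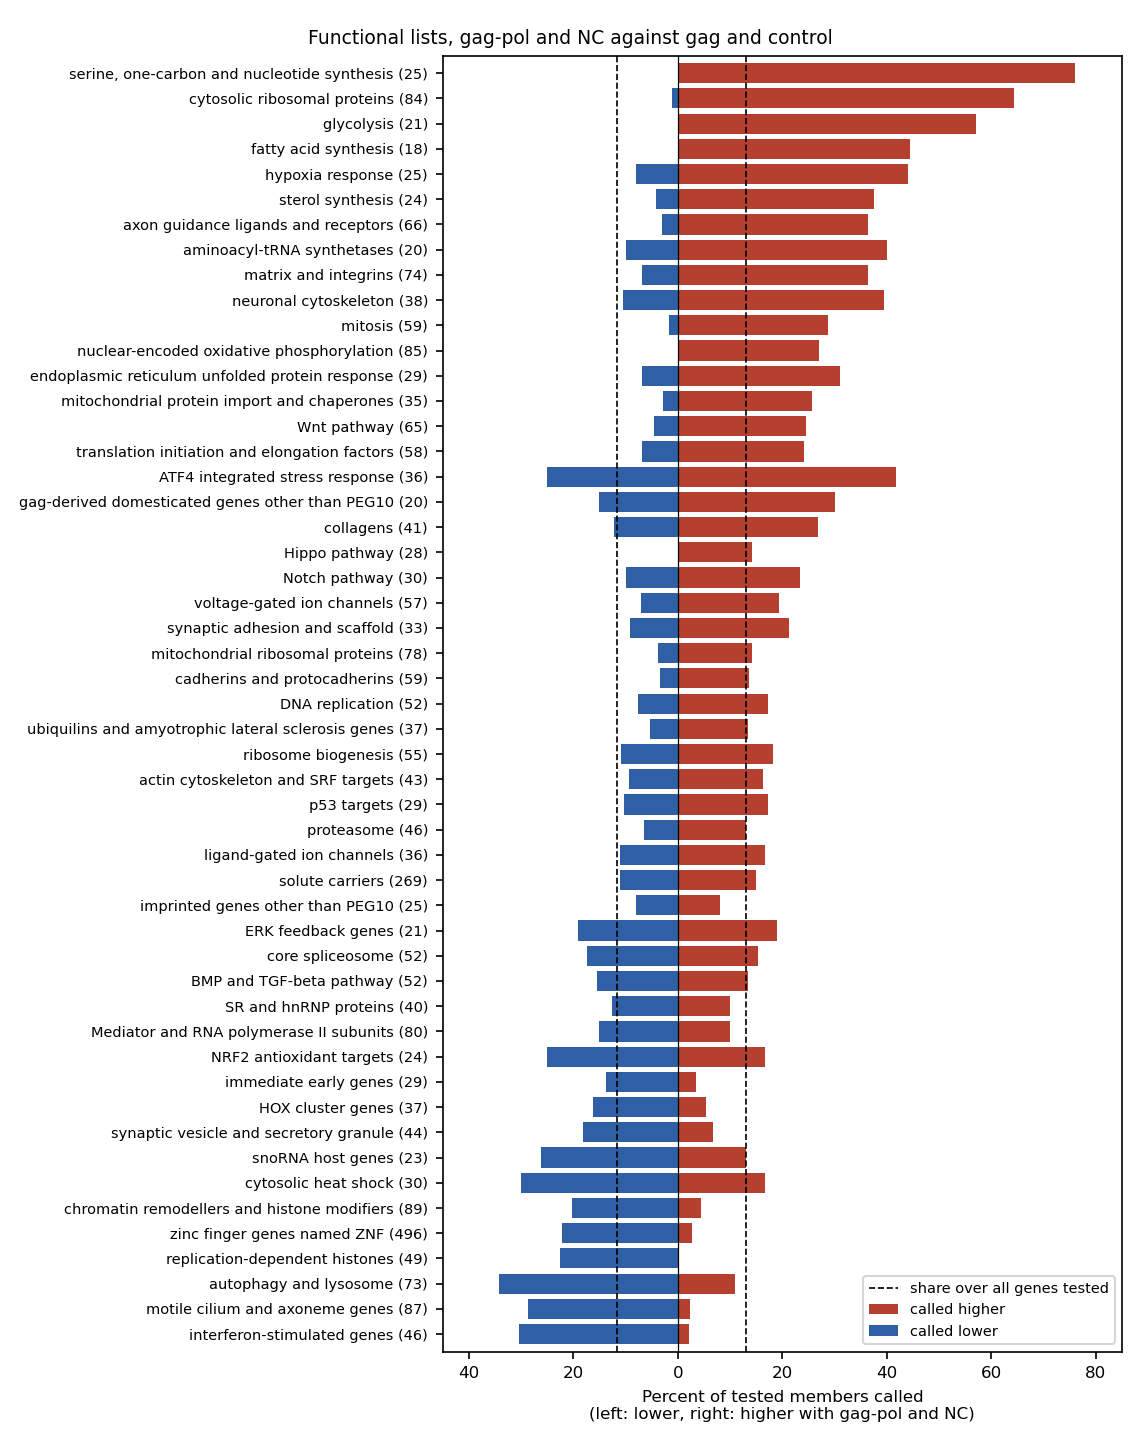
Percent of the tested members of each list (number in brackets) that were called higher (red, to the right) or lower (blue, to the left) with gag-pol and NC than with gag and control, in the order of the difference of both shares, for lists of 18 or more tested genes; dashed lines mark the shares over all genes, 13.1% and 11.6%. Serine, one-carbon and nucleotide synthesis stands at the top with 76.0% higher and interferon-stimulated genes at the bottom with 30.4% lower.

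Called interferon-stimulated genes were nearly all lower, and among lists of 18 or more genes they had the lowest share of higher minus lower calls. These genes encode antiviral effectors and sensors and are switched on through the interferon response element, a promoter sequence bound by the factors that interferon activates. Of 46 tested, 14 were lower (30.4%) and 1 higher, with a median of -0.23. IFIT1, which binds viral RNA caps, had 21.0, 10.04 and 37.5 CPM with control and 22.5, 14.9 and 32.0 with gag, and 14.1, 5.57 and 12.8 with NC and 11.4, 7.06 and 11.3 with gag-pol. The highest levels without gag-pol or NC were in replicate 3, and the log2 difference was -1.10 (SE 0.14, edgeR adjusted p = 0.000141). DDX58, the RNA sensor RIG-I, differed by -0.89 (SE 0.12, edgeR adjusted p = 4.71e-05) and HERC5, the ligase for ISG15, by -0.27 (SE 0.06, edgeR adjusted p = 0.00361).

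Among members at a mean log2 CPM of at least 1, OASL (-1.49), IFIT2 (-1.28) and IFIT3 (-1.27) had the largest differences in size but wide errors, 0.33, 0.27 and 0.28, and edgeR adjusted p-values of 0.0159, 0.0174 and 0.0196. Without gag-pol replicate 3 all 3 calls were lost, with edgeR adjusted p-values of 0.0646, 0.0588 and 0.0696, and without NC replicate 3 those of IFIT2 and IFIT3 were, as was that of IFIT3 without NC replicate 2. In the controls alone the list was lower in replicate 2 than in the mean of the other 2 control libraries, with a median of -0.31. Its mean level, as the log2 difference from the mean of all 12 libraries, was -0.05, -0.09 and 0.67 in control replicates 1, 2 and 3. Control replicate 3 was thus the one that stood apart. The list's median difference between the sides was -0.06, -0.14 and -0.41 in replicate numbers 1, 2 and 3. BST2, the antiviral tether of the cell surface, went the other way, with 3.87 to 8.55 CPM against 5.90 to 12.7 and a difference of 0.73 (SE 0.12, edgeR adjusted p = 0.000187).

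The response element was searched in the promoters of RefSeq on GRCh38.p14, 250 bases before to 50 after the gene start, as GAAA, any 2 bases and GAAA, or the reverse complement TTTC, any 2 bases and TTTC, so that both strands were read and overlapping matches were counted. A single match each is shown for 3 members that were lower and for the member that was higher, in capitals, and these windows are given 5′ to 3′ on the strand of the gene.
IFIT1: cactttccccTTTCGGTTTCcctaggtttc
IFIT3: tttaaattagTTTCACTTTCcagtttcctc
HERC5: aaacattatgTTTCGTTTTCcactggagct
BST2: ctgggaaactGAAACTGAAAacctaattaa
The windows lie at chr10:89392510-89392539 for IFIT1, chr10:89327865-89327894 for IFIT3 and chr4:88457035-88457064 for HERC5 on the plus strand, and at chr19:17405735-17405764 on the minus strand for BST2. Their matches begin 103, 122, 74 and 124 bases before the gene start. A match was present in 996 of 27305 promoters (3.65%) and in 23 of the 36 interferon-stimulated genes with a promoter in the table (63.9%). It was present in 9 of 11 members called lower and in 13 of 24 not called, and BST2, the member called higher, also held it. Over all genes called, 1.97% of those higher and 2.94% of those lower held a match, beside 2.87% of all genes tested.

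Zinc finger genes were the list with the largest number of falls. Of 496 genes named ZNF, most of which encode zinc finger proteins that bind DNA, 110 were lower (22.2%) and 13 higher (2.62%), with a median of -0.12. The fall was larger against gag than against control, with medians of -0.17 for gag-pol against gag and -0.23 for NC against gag, beside -0.01 for gag-pol against control and -0.08 for NC against control, and the difference between these was not tested. ZNF79 had 8.29 to 19.3 CPM against 4.52 to 13.5 and differed by -0.72 (SE 0.14, edgeR adjusted p = 0.00124), and ZNF610 (-0.68) and ZNF425 (-0.67) followed. ZNF449 (0.47) was the largest rise. Many ZNF genes are close relatives of one another on chromosome 19, where reads can be shared. Of 1219 genes tested on that chromosome 254 were lower (20.8%) and 105 higher (8.61%), and on the X chromosome, in contrast, 134 of 534 genes were higher (25.1%) and 40 lower (7.49%).

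Chromatin remodellers and histone modifiers had 18 of 89 lower (20.2%) and 4 higher, with a median of -0.07. Their medians were -0.12 for NC against control and -0.10 for NC against gag, beside -0.01 for gag-pol against gag and -0.02 for gag-pol against control. The called members differed by at most 0.35 in size. KDM2A (-0.35), a histone demethylase, SETD2 (-0.35), which methylates histone H3 on active genes, and CHD2 (-0.34), a remodeller, were the largest falls named here and HDAC6 (0.29), a mostly cytoplasmic deacetylase, the largest rise. Mediator and RNA polymerase II subunits had 12 of 80 lower and 8 higher. Core spliceosome genes had 9 of 52 lower and 8 higher, and SR and hnRNP proteins 5 of 40 lower and 4 higher, which is near the share of all genes. Host genes of small nucleolar RNAs had 6 of 23 lower, led by SNHG17 (-0.54), and 3 higher. Of 903 long noncoding RNA genes 28 were higher (3.10%) and 62 lower (6.87%), and of 14863 protein-coding genes 2181 were higher (14.7%) and 1830 lower (12.3%).

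Lysosomal and ciliary genes had more lower than higher calls, with most members not called. Of 73 autophagy and lysosome genes 25 were lower (34.2%) and 8 higher, with a median of -0.10. Medians were -0.16 for gag-pol against control and -0.10 for NC against control, beside -0.08 for gag-pol against gag and -0.03 for NC against gag. The difference between these was not tested. MCOLN1, a lysosomal calcium channel, had 17.8 to 45.1 CPM with gag or control and 11.6 to 23.7 with gag-pol or NC and differed by -0.52 (SE 0.10, edgeR adjusted p = 0.00129). The proton pump subunits ATP6V0D1 (-0.47) and ATP6V0A1 (-0.41) fell, and CTSH (0.52), a cathepsin, rose. Genes of the motile cilium and axoneme had 25 of 87 lower (28.7%) and 2 higher, with a median of -0.30. That list was assembled after its members had been seen among the falls and its count is a description. WDR78, an assembly factor of axonemal dynein, had 16.7, 5.78 and 12.4 CPM with control, 14.1, 5.97 and 7.09 with gag, 11.7, 3.32 and 3.75 with NC and 5.23, 2.67 and 2.54 with gag-pol. It differed by -1.18 (SE 0.15, edgeR adjusted p = 3.07e-05), TTC25 by -1.01 and DNAH7, an axonemal dynein chain, by -0.92, whereas ARMC4 (0.61), another dynein docking factor, rose. HEK293 cells do not build motile cilia, and these genes lie at low levels.

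**Figure D5:**
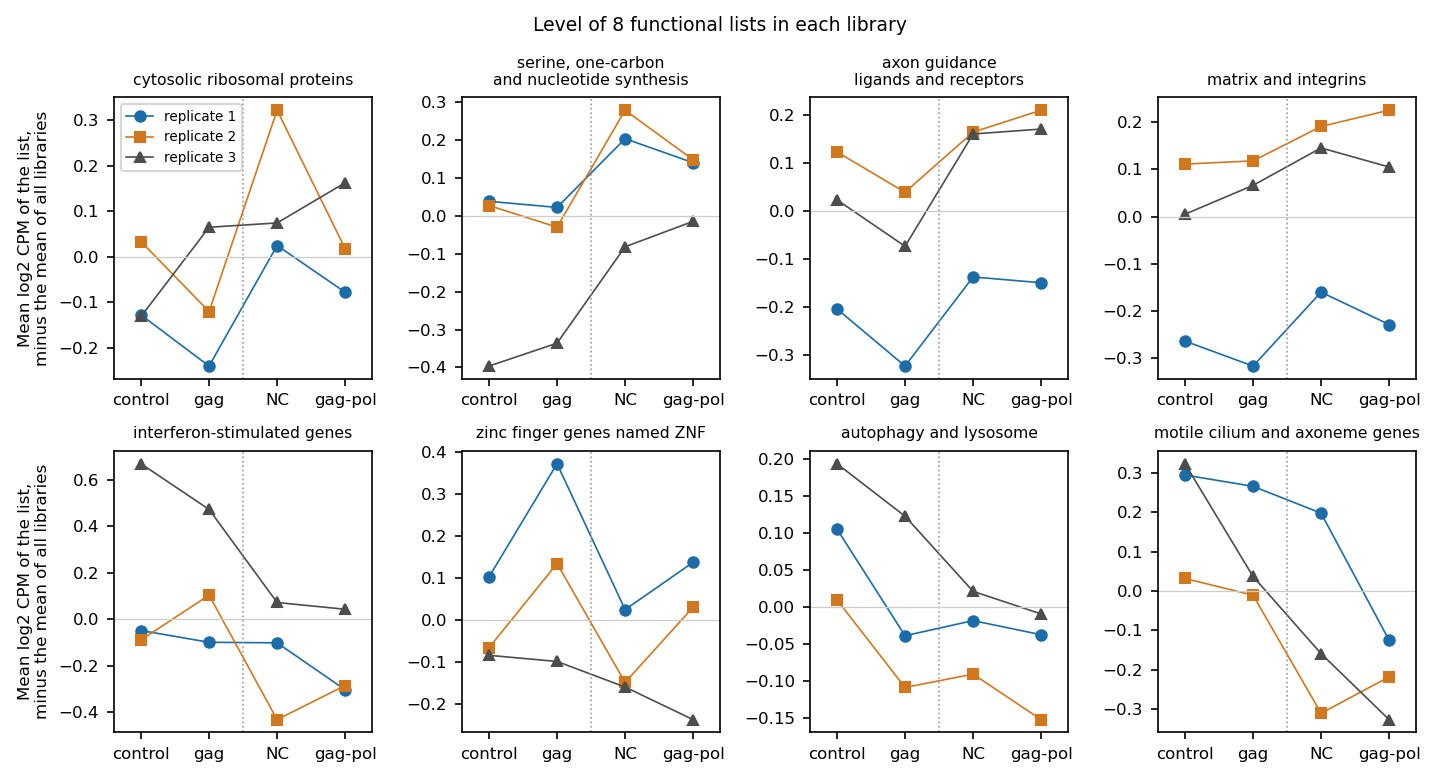
Mean log2 CPM of 8 lists in each library, given as the difference from the mean of all 12 libraries, where a line joins the 4 libraries of 1 replicate number and the dotted line parts gag and control from NC and gag-pol. The replicate numbers stand apart as well as the constructs, with interferon-stimulated genes at 0.67 in control replicate 3 and -0.43 in NC replicate 2.

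Stress programmes were divided, except for the unfolded protein response, whose calls were mostly higher. Of 36 targets of ATF4, the transcription factor of the integrated stress response, 15 were higher and 9 lower, with medians of -0.00 for gag-pol against gag and 0.15 for NC against control. Its amino acid enzymes rose, with PYCR1 (0.51, SE 0.07, edgeR adjusted p = 5.15e-05) of proline synthesis, PSAT1, MTHFD2, ASNS (0.37), asparagine synthetase, and the transporter SLC7A5 (0.37). CHAC1 (-0.65), which degrades glutathione, SESN2 (-0.40), a stress-induced inhibitor of growth signalling, and SLC3A2 (-0.54), the heavy chain that partners SLC7A5, fell. CHAC1 lost its call without gag-pol replicate 3 (edgeR adjusted p = 0.0583). Cytosolic heat shock genes had 9 of 30 lower, with HSPB8 (-0.96) and DNAJB4 (-0.56), and 5 higher, with SERPINH1 (0.39), a collagen chaperone. The unfolded protein response of the endoplasmic reticulum had 9 of 29 higher, led by HSP90B1 (0.33), and 2 lower (median 0.12). NRF2 targets had 4 of 24 higher, led by TXN (0.35), thioredoxin, and 6 lower, led by ABCC2 (-0.77), an efflux pump. Proteasome genes had 6 of 46 higher and 3 lower. Immediate early genes had 1 of 29 higher and 4 lower, with a median of 0.31 for gag-pol against control and -0.56 for NC against gag. ERK feedback genes had 4 of 21 higher, led by PHLDA1 (0.68), and 4 lower.

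Genes related to the study's disease and relatives of PEG10 differed in their shares called. Of 37 ubiquilin and amyotrophic lateral sclerosis genes 5 were higher (13.5%) and 2 lower (5.41%), beside 13.1% and 11.6% of all genes. C9orf72, whose repeat expansion causes the disease, had 4.12 to 13.6 CPM against 8.68 to 16.6 and differed by 0.66 (SE 0.12, edgeR adjusted p = 0.00041), SOD1 differed by 0.27 and UBQLN2, the ubiquilin that restrains gag-pol, by 0.20. SQSTM1 (-0.25), an autophagy receptor, fell. Of 20 other gag-derived domesticated genes 6 were higher (30%), led by PNMA2 (0.35), and 3 lower (15%), led by ZCCHC12 (-0.47), and of 25 other imprinted genes 2 were higher and 2 lower. Solute carriers had 40 of 269 higher and 30 lower, led by SLC24A4 (0.70).

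Gag-pol and NC were then compared for the size of their difference. The test of whether gag-pol minus gag differed from NC minus control called 9 of 17176 genes (0.0524%), with 948 at an unadjusted p under 0.05 (5.52%). The test of whether gag-pol minus control differed from NC minus gag, which parts gag-pol and gag from NC and control, called 558 (3.25%). Of the 9 genes, which were named after their values were seen, H1F0, a linker histone of resting cells, fell by 0.91 on the log2 scale with gag-pol against gag and had 0.00 with NC against control. SLC44A2 and SLC43A2, membrane transporters, had 0.26 and 0.29 with gag-pol against gag and -1.10 and -1.24 with NC against control. Against control, gag-pol was lower as well, by -1.09 for SLC44A2 and -1.03 for SLC43A2, and NC against gag gave 0.24 and 0.08. Failing the test that called these 9 genes does not show that gag-pol and NC acted alike. No simulation of that test was run. In the main comparison a simulated log2 difference of 0.5 was called for 62.5% of genes and one of 0.25 for 15.6%. The difference between both pairs has a wider error than the main comparison, so these rates are too high for it.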

How the data were processed

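RNA from 12 libraries of HEK293 cells, 3 per construct, was sequenced from poly(A) libraries. The authors deposited raw read counts per gene, which the submitters' processing notes describe as made with STAR 2.7.3, SAMtools 1.8 and featureCounts on GRCh38.p13. The annotation version, strand setting and treatment of reads with several positions were not given in the sources used here, so near-identical genes (ribosomal proteins, histones, zinc fingers) are uncertain. Library totals were 30.6 to 45.3 M counts, and tested genes held 99.97% of them.

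From the deposited counts, 17176 of 26485 genes passed edgeR's filter (minimum count 10, minimum total 15). Counts were scaled by TMM and fitted with edgeR 4.0.16 in R 4.3.3 (robust quasi-likelihood F test, construct plus replicate number, 12 libraries, 6 residual degrees of freedom), and p-values were adjusted by Benjamini-Hochberg over all tested genes at 0.05. Levels are TMM-scaled CPM, and log2 levels use a prior count of 2. The series describes 3 independent passages, but no label ties a replicate number to a passage. The 18 pairs of libraries that share a number had correlated deviations from their construct means (r 0.14 to 0.54), and the 36 other pairs had r of -0.50 to 0.07. The numbers were therefore used as a block, and what they mark was not given. P-values measure the spread that remains between libraries of 1 cell line once construct and replicate number are fitted. In simulated counts for 16978 genes, the comparison called 92.3% of 65 genes changed by a log2 of 1, with 12 false calls.

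The comparison and gene lists were chosen with earlier results of these data known. Named genes are PEG10, DCLK1 and TXNIP. To these were added, among called genes at a mean log2 CPM of at least 2 with 1 direction in all replicate numbers and no clone or antisense name, the 10 largest rises and falls and the 5 smallest p-values in each direction, and each list's largest rise and fall at a mean log2 CPM of at least 1, some of which are not reported here. Further examples were picked with their values in view. Gene positions are from GENCODE on GRCh38 and promoters from RefSeq on GRCh38.p14. Alternatives were DESeq2 1.42.0, limma 3.58.1 (voom), other scalings and filters, thinned counts, a GC and length correction, no replicate block, and leaving out each library or replicate number.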

Additional observations from a re-analysis of the deposited data

Results flagged for a closer look

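Genes below were flagged because a test of the difference between 2 comparisons passed an edgeR adjusted p of 0.05, and no explanation was tested. For 20 named genes gag-pol minus control differed from NC minus gag, the contrast that sets both long constructs against NC and the control. The difference was positive on the log2 scale for PEG10 (11.32), TXNIP (1.41), ADM (1.40), C11orf96 (1.38), ZCCHC12 (0.88), ID3 (0.67), SNHG17 (0.65) and UTP14A (0.54). TXNIP was 1.07 with gag-pol against control and -0.34 with NC against gag, and PEG10 was 7.22 and -4.10. The difference was negative for NPR3 (-1.58), SCG3 (-1.53), TRPM4 (-1.43), SLC44A2 (-1.33), SYN1 (-1.20), SLC43A2 (-1.11), WDR78 (-1.09), CARS (-0.62), SLC3A2 (-0.58), RWDD2B (-0.57), ZBTB48 (-0.46) and PNPLA6 (-0.41). NPR3, SCG3, SYN1, WDR78 and ZBTB48 were lower in both comparisons and lower by more with gag-pol against control.

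For 9 genes gag-pol minus gag differed from NC minus control. The difference was positive for SLC43A2 (1.53), ZNF44 (1.37), SLC44A2 (1.36), ZNF625 (1.29) and TRPM4 (0.93), and negative for C11orf96 (-0.96), H1F0 (-0.91), RWDD2B (-0.83) and DDIT3 (-0.77). TRPM4, a cation channel, was 0.39 with gag-pol against gag and -0.54 with NC against control, but -0.79 with gag-pol against control. DDIT3, the stress factor CHOP, was -0.63 and 0.14.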

How the results depend on the processing

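The replicate block decided the counts. Without it edgeR called 0 genes in the comparison, 0 higher and 0 lower, 0 for gag-pol against gag, 2 for NC against control, 2 for gag-pol against control and 1 for NC against gag. All 187 named genes that were called lost their call without the block, and none changed sign under any alternative. At an absolute log2 difference of at least 0.5 the counts were 801 (237 higher, 564 lower), 413, 594, 717 and 815 in the same order. Leaving out 1 library or 1 replicate number gave 2222 to 4074 genes for the comparison, 1223 to 2288 higher and 960 to 1918 lower. The same gave 12 to 1849 for gag-pol against gag, 367 to 2369 for NC against control, 422 to 2445 for gag-pol against control and 342 to 3556 for NC against gag, so the counts of the single pairs rest on few libraries. DESeq2 called 4562 genes, of which 4211 were shared, limma voom 4231, and the GC and length correction 4492. The side with more calls was the same in all 5 alternatives run for lists in 38 of the 52 lists with a gene tested. These include the motile cilium list, which is among the 38 but was assembled after its members had been seen among the falls. Of 189 named genes, 22 lost a call without at least 1 single library and 47 without at least 1 replicate number. The cause was not tested. All libraries came from 1 line, 3 per construct. In simulated counts of this design log2 differences of 0.25 were mostly missed. The simulation changed 64 to 65 genes at each size, against 4244 called in the data, so its rates need not hold for these data.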
